A study of Mus musculus with 6 samples.

Results

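The interferon regulatory factors are a family of transcription factors named for their control of interferon genes. The 8 members described here, Irf1, Irf2, Irf3, Irf4, Irf5, Irf7, Irf8 and Irf9, were found by gene symbol, current or former, in the platform annotation of the array. Each had 1 probe set, and they are 8 of the 18784 genes tested. Their levels were read on 6 arrays of mouse B lymphoma cells, 3 for each of 2 short hairpin RNAs. All cells came from Arf-/-Eu-myc/Bcl-2 lymphomas, which lack the tumour suppressor Arf and combine Bcl-2 with Eu-myc, a transgene driven in B cells by an immunoglobulin enhancer. The control cells carried the hairpin Rluc.713, named for Renilla luciferase, and the others Dhx9.1241, named for Dhx9, an RNA and DNA helicase. Both kinds of cells were kept on irradiated Arf-/- mouse embryonic fibroblasts. The labels state no drug on these arrays, give neither the time after transduction nor the number of tumours or clones, and do not say whether replicates were separate cultures. The p-values therefore measure the spread between arrays, which may be technical, and 3 arrays a group limit the precision.

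All members bind DNA through a related domain that reads steps of the letters GAAA. Irf3 and Irf7 are switched on by kinases downstream of RNA and DNA sensors and turn on type I interferon genes. Irf9 joins STAT2 in the complex that answers secreted interferon at the interferon-stimulated response element (ISRE), and Irf7 is itself a known target of that complex, so the pathway can feed forward. Irf1 activates and Irf2 mostly represses through similar elements. Irf4 and Irf8 act in B cell development together with the ETS factors PU.1 (Spi1) and Spi-B (Spib), while Irf5 acts downstream of Toll-like receptors.

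The promoter sequences show which members carry such elements near their start. RefSeq windows on GRCm38.p6 were available for all 8 members, 11 windows in all, each reaching from 250 bases before a transcript start to 50 after it. They were searched on both strands for an ISRE core, GAAANNGAAA, for the STAT-binding GAS element, TTCNNNGAA, and for the ETS-IRF composite element, GGAANNGAAA, whose matches can overlap those of the ISRE core. Of all 32851 windows of this length, 3.44% held the ISRE core, 8.30% the GAS element and 2.72% the composite element. Among the members only Irf2 held an ISRE core, and also a composite element, while Irf1, Irf2 and Irf8 held a GAS element. The window of Irf7 held none of the 3, and a search of these bases says nothing about elements elsewhere. The stretch of Irf7 is shown because it is the member that rose, those of Irf2, Irf1 and Irf8 because they hold a match, and that of Rsad2 as an interferon-stimulated gene with an ISRE core, here read on the other strand. Capitals mark the ISRE core in Irf2 and Rsad2 and the GAS element in Irf1 and Irf8. The Irf2 stretch also holds its composite match, which begins at position -247 from the start and overlaps the capitals. Its GAS match, which begins at -224, is in the stretch too, and neither is marked separately. In Irf8 they mark the match that begins at position -171 from the start; a second GAS match, which begins at -153, is also in the stretch and is left in lower case. The stretches lie at chr7:141266505-141266604 (Irf7, minus strand), chr8:46739495-46739533 (Irf2, plus), chr11:53769904-53769952 (Irf1, plus), chr8:120736167-120736215 (Irf8, plus) and chr12:26456543-26456592 (Rsad2, minus). The Irf2 stretch also overlaps the span of the long non-coding RNA gene Gm16675, and no other gene of that annotation overlaps those of Irf7, Irf1, Irf8 and Rsad2.
Irf7: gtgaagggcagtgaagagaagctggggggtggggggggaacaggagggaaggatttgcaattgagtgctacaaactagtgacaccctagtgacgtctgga
Irf2: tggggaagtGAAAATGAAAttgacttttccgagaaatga
Irf1: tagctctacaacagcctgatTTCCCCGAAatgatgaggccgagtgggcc
Irf8: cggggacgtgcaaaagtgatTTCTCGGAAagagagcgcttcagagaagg
Rsad2: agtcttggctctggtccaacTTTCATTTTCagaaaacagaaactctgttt

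The hairpin's named target was lower in the Dhx9.1241 cells. Dhx9 (probe set 13211_at) read 12.41, 12.48 and 12.36 on the log2 scale in the control arrays and 11.46, 11.43 and 11.38 in Dhx9.1241, with no overlap. Some labels call these arrays dhx29KD, but Dhx29 (218629_at) had a log2 change of 0.04 (95% interval -0.08 to 0.17), so the arrays are named here by their hairpin. No other Dhx9 hairpin was measured, so lower Dhx9 and other effects of this hairpin cannot be told apart. On principal component 2, Rluc.713 replicate 1 lay at 16.7 and the other control arrays at -4.81 and -5.29. Its value was the lowest of the controls in 64.3% of the brighter genes, those not below the median level, and in 13.3% of the dimmer ones. Among the members it had the lowest control value in 5, Irf1, Irf2, Irf4, Irf5 and Irf9, so their values without it are given.

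One member rose in the Dhx9.1241 cells, Irf7, and the other 7 did not pass the test. The threshold was an adjusted p under 0.05 in limma, a linear model fitted over all genes with Benjamini-Hochberg adjustment. Over all genes 3.14% passed, 2.07% higher and 1.07% lower, so the 1 of 8 members that rose stands beside a background of 2.07%. No member fell. Before adjustment, p was under 0.05 for Irf7 and Irf9, both higher, and for 0 members in the lower direction, beside 8.5% of all genes higher and 5.63% lower at that level. In 4 of the 8 members, Irf4, Irf7, Irf8 and Irf9, the 2 groups of arrays did not overlap, which was so for 20.1% of all genes. The median log2 change was 0.05 over the members and 0.00 over all genes, and the smallest change called in any gene had a size of 0.21. In bulk RNA of this kind, fewer cells that express a gene and less RNA per cell cannot be told apart.

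**Figure D1:**
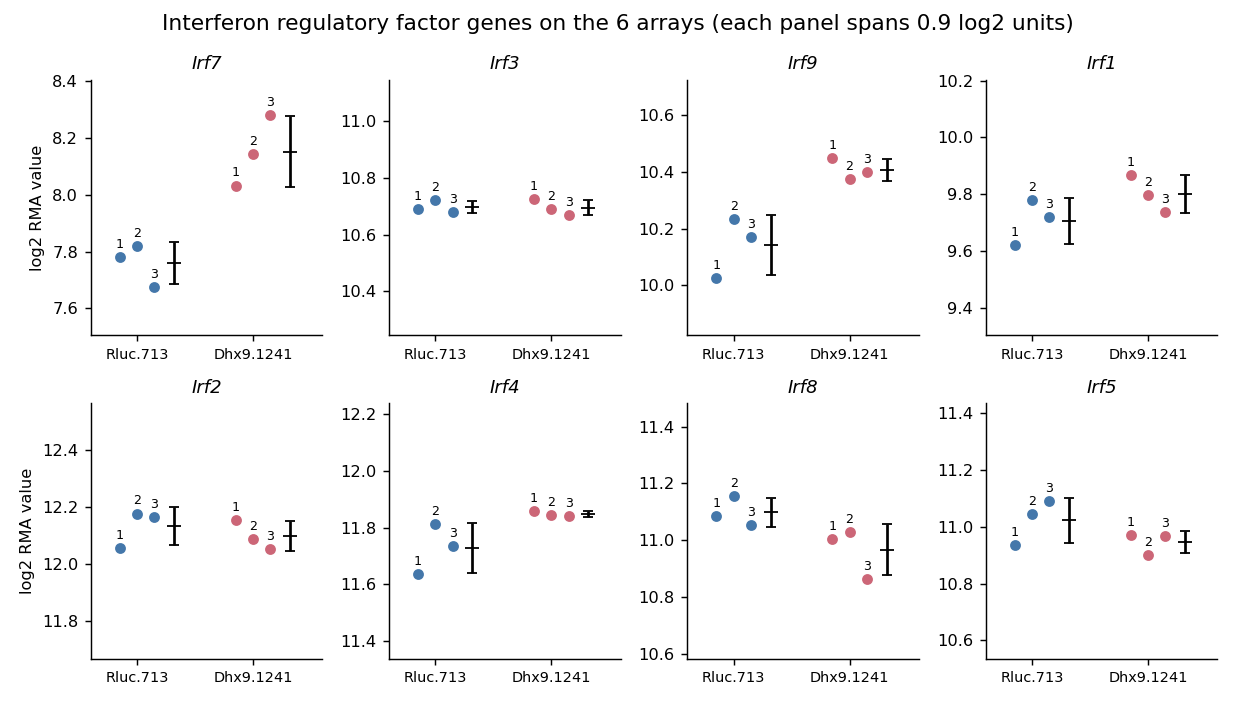
Levels of the 8 members by array, on the log2 scale of the deposited values, with replicate numbers beside the points and the mean and SD (n = 3) at the right of each group. Only Irf7, Irf9, Irf4 and Irf8 show groups that do not overlap, and each panel spans the same log2 range.

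Irf7, often called the master regulator of type I interferon production, had the largest change of the family. Its probe set (54123_at) read 7.78, 7.82 and 7.68 in the control arrays and 8.03, 8.14 and 8.28 in Dhx9.1241. Every Dhx9.1241 array lay above every control, and Dhx9.1241 replicate 3 was the highest. The mean went from 7.76 ± 0.075 to 8.15 ± 0.125 (SD, n = 3), or 1.31-fold higher. The difference of 0.39 on the log2 scale (SE 0.073, 95% interval 0.23 to 0.56) passed at an adjusted p of 0.0279. In size this change lay at the 98.5th percentile of all genes.

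The Irf7 call did not hold in every fit with 1 array fewer, and such a fit also has less power. It held without Rluc.713 replicate 1 (adjusted p = 0.0299) and without Dhx9.1241 replicate 1 (0.0429). It was lost without Rluc.713 replicate 2 (0.0634), Rluc.713 replicate 3 (0.102), Dhx9.1241 replicate 2 (0.0964) and Dhx9.1241 replicate 3 (0.0982). The log2 change stayed between 0.33 and 0.45 in these 6 fits.

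Irf3, the closest relative of Irf7 in activation and a constitutively made factor, did not pass. It (54131_at) read 10.69, 10.72 and 10.68 in the control arrays and 10.72, 10.69 and 10.67 in Dhx9.1241, and the groups overlapped. The log2 change was 0.00 (SE 0.046, adjusted p = 0.997), and its 95% interval of -0.11 to 0.10 leaves out a change of the size seen in Irf7. The difference between Irf7 and Irf3 within each array moved by 0.40 on the log2 scale between the hairpins, and the arrays of the 2 groups did not overlap in it. An exact two-sided permutation test over the 6 arrays gave p = 0.1, the smallest that 3 against 3 allows, and 0.1 after adjustment over the 3 pairs of relatives compared. All 3 pairs stood at this floor, so the test could neither pass any of them nor tell them apart. With Irf3 level, this difference mostly repeats the Irf7 change of 0.39. How often other pairs of genes lack overlap was not counted.

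Irf9, the DNA-binding subunit of the interferon-activated STAT complex, was next in size. It (16391_at) read 10.03, 10.23 and 10.17 in the control arrays and 10.45, 10.37 and 10.40 in Dhx9.1241. No Dhx9.1241 array fell within the control range, and the lowest value was that of Rluc.713 replicate 1. The log2 change of 0.26 (SE 0.063, 95% interval 0.12 to 0.41) did not pass, at an adjusted p of 0.0703. Without Rluc.713 replicate 1 the change was 0.21 and the adjusted p 0.0613. Irf9 did pass under 5 other settings: quantile normalization again (0.0227), cyclic loess (0.0252), a variance trend with robust estimation (0.0222), array weights (0.0379), and a test of the brighter genes alone (0.0262). In that order these settings called 507, 503, 673, 669 and 609 genes higher, against 389 with all arrays as deposited. Over all 16 alternatives the adjusted p of Irf9 ran from 0.0222 to 0.259. Irf9 is thus a member whose side of the threshold changed with the processing.

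**Figure D2:**
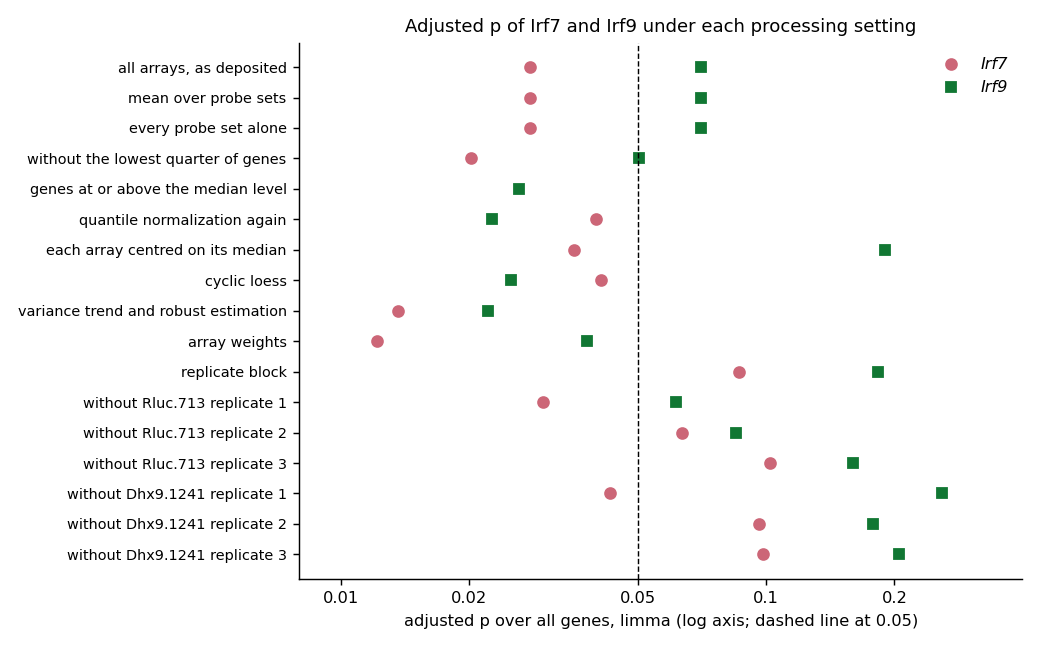
Adjusted p of Irf7 and Irf9 (limma, log axis) with all arrays as deposited and under each alternative, with the dashed line at 0.05. Irf7 lay left of the line with all arrays (0.0279) and right of it in 4 of the 6 fits without 1 array, while Irf9 moved between 0.0222 and 0.259; Irf7 has no point in the row of the brighter genes, where that dimmer gene was not tested.

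Irf1 and Irf2, the activator and repressor pair, did not pass. Irf1 (16362_at) read 9.62, 9.78 and 9.72 in the control arrays and 9.87, 9.80 and 9.74 in Dhx9.1241, which is 0.10 higher (95% interval -0.04 to 0.23, adjusted p = 0.61). Irf2 (16363_at) read 12.06, 12.18 and 12.16 against 12.15, 12.09 and 12.05, a change of -0.03 (-0.16 to 0.09, adjusted p = 0.907). In both genes the groups overlapped. Within arrays, the difference of Irf1 minus Irf2 was 0.13 higher in Dhx9.1241, from -2.43 ± 0.025 to -2.30 ± 0.017 (SD, n = 3), with no overlap. The exact permutation p was 0.1, the smallest possible, and 0.1 adjusted over the 3 pairs. Without Rluc.713 replicate 1, the changes were 0.05 for Irf1 and -0.07 for Irf2, and neither passed. Over the 6 fits with 1 array left out, Irf1 ran from 0.05 to 0.13 and Irf2 from -0.07 to -0.01.

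Irf4 and Irf8, the members that pair with PU.1 and Spi-B in B cells, leaned in opposite directions without passing. Irf4 (16364_at), which drives light chain rearrangement and plasma cell differentiation, read 11.64, 11.81 and 11.74 in the control arrays and 11.86, 11.84 and 11.84 in Dhx9.1241. Its 3 Dhx9.1241 values were nearly equal (SD 0.010) and lay just above the highest control, and its log2 change was 0.12 (95% interval -0.01 to 0.25, adjusted p = 0.41). Irf8 (15900_at), which acts in early B cells and in myeloid cells, read 11.09, 11.15 and 11.05 against 11.00, 11.03 and 10.86, a change of -0.13 (-0.27 to 0.01, adjusted p = 0.386). Its Dhx9.1241 arrays all lay below the controls, with Dhx9.1241 replicate 3 the lowest. The difference of Irf4 minus Irf8 within arrays was 0.63 ± 0.071 in the control and 0.88 ± 0.084 in Dhx9.1241 (SD, n = 3), 0.25 higher with no overlap. Its exact permutation p was 0.1, the smallest possible, and 0.1 adjusted over the 3 pairs. Without Rluc.713 replicate 1 the Irf4 minus Irf8 difference between the hairpins was 0.21, and the change of Irf4 alone was 0.07 (adjusted p = 0.416). Without Dhx9.1241 replicate 3 the change of Irf8 was -0.08 (adjusted p = 0.717).

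Irf5, a Toll-like receptor effector of B and myeloid cells, overlapped between the groups. It (27056_at) read 10.94, 11.04 and 11.09 in the control arrays and 10.97, 10.90 and 10.97 in Dhx9.1241. The log2 change was -0.08 (95% interval -0.21 to 0.05, adjusted p = 0.688), and it was -0.12 without Rluc.713 replicate 1. It was -0.04 without Rluc.713 replicate 3 and -0.05 without Dhx9.1241 replicate 2.

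**Figure D3:**
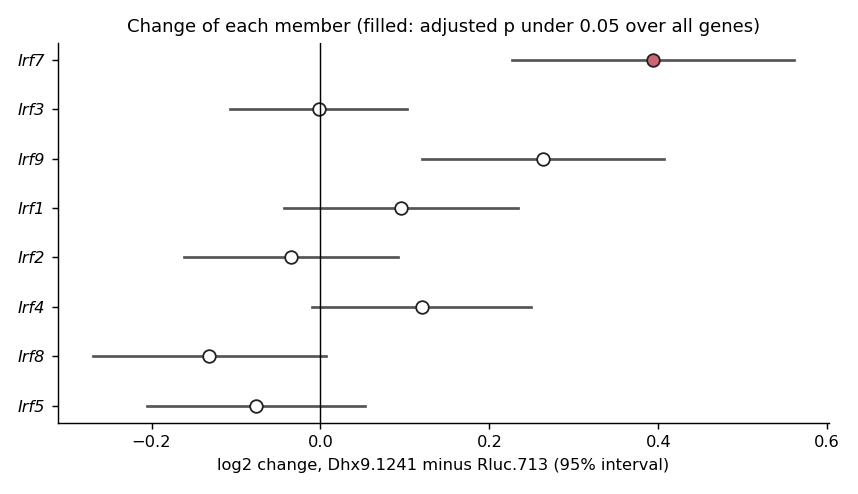
Log2 change of each member, Dhx9.1241 minus Rluc.713, with its 95% interval from limma. Irf7 at 0.39 is the filled point, the interval of Irf9 (0.12 to 0.41) also lies above 0, and those of the other 6 members include 0.

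The kinases and sensors that act before Irf3 and Irf7 held 2 genes that passed. Of 27 measured genes of 30 listed, 2 rose and none fell, beside 2.07% of all genes higher and 1.07% lower. Ifih1, the sensor of long double-stranded RNA, rose from 7.98 ± 0.084 to 8.57 ± 0.037 (SD, n = 3, adjusted p = 0.00187). Ifih1 also stands in the list of interferon-stimulated genes below, where the same rise is counted again. Ikbke, which encodes IKK-epsilon, a kinase of Irf3 and Irf7, rose from 8.18 ± 0.075 to 8.53 ± 0.105 (adjusted p = 0.0341). The Ikbke call was kept without Rluc.713 replicate 1 (0.0441) and lost without any other array: without Rluc.713 replicate 2 (0.0575) or 3 (0.122), or Dhx9.1241 replicate 1 (0.132), 2 (0.0537) or 3 (0.125). It was also lost after quantile normalization again (0.066), cyclic loess (0.0551) and median centring (0.0567). The related kinase gene Tbk1 had a log2 change of -0.05, the adaptor gene Mavs 0.06, the RNA sensor gene Ddx58 -0.03 and the DNA sensor gene Cgas -0.10. Tlr9 (-0.23, adjusted p = 0.0836) and the receptor chaperone gene Unc93b1 (-0.21, adjusted p = 0.071) did not pass. The median change over the list was 0.00.

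No interferon ligand passed the test. None of 17 measured type I and III interferon genes was called in limma, beside 3.14% of all genes. A list this short would hold few or no calls at that share. None of the 17 had an unadjusted p under 0.05 in either direction, beside 8.5% of all genes higher and 5.63% lower. Ifnb1, the interferon beta gene, had a log2 change of -0.04, and the largest changes were those of Ifna6 (-0.19, adjusted p = 0.757) and Ifna13 (-0.14, adjusted p = 0.494). The Ifna genes are near-identical copies, so single values are uncertain, and 8 of the 17 were among the 25% of genes with the lowest level. None of 10 receptor, JAK and STAT genes passed either, although before adjustment p was under 0.05 for 3 higher and 2 lower genes (8.5% and 5.63% of all genes). Among them Stat2, the partner of Irf9, had a change of 0.20 (adjusted p = 0.247), Ifnar1 0.16 (0.192), and the interferon gamma receptor genes Ifngr1 and Ifngr2 -0.24 (0.0982) and -0.14 (0.177).

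Among the pathway lists, which leave out the cell markers below, known interferon-stimulated genes gave the largest changes. Of 32 measured genes of the ISRE type, 11 rose, 1 fell and 20 did not pass, beside 2.07% of all genes higher and 1.07% lower. The list median was 0.19 against 0.00 over all genes. Rsad2, which encodes the antiviral protein viperin, rose 2.35-fold, Ifit1, whose protein binds foreign RNA ends, 2.17-fold, Oasl2 1.92-fold and the chemokine gene Cxcl10 1.76-fold. Ifit3, Oasl1, Ifih1, Rtp4, Usp18, Ccl5 and Ifi27 rose by log2 changes of 0.80, 0.67, 0.59, 0.55, 0.49, 0.45 and 0.36. Parp14 was lower by 0.26 (adjusted p = 0.0484), but without Rluc.713 replicate 2 or 3 or any 1 Dhx9.1241 array its adjusted p lay between 0.132 and 0.18. Several rises also lost their call when a Dhx9.1241 array was left out: Ccl5 without replicate 1, 2 or 3 (0.0564, 0.0657 and 0.0849), and Ifi27 and Rtp4 without replicate 1 (0.0613 and 0.0544) or 3 (0.0616 and 0.0559). Promoter windows were matched for 21 of these 32 genes. An ISRE core was found in 13, of which 5 rose, among them Rsad2 and Cxcl10, and not in 8, of which Oasl1 and Oasl2 rose. This list overlaps an interferon list already known to rise in these arrays and is no independent support.

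Genes tied to Irf1 and interferon gamma gave no call. None of 20 measured genes passed in limma, beside 3.14% of all genes, a share at which so short a list would hold few or no calls. In limma p before adjustment was under 0.05 for 1 higher and 4 lower genes (8.5% and 5.63% of all genes). The list median was -0.04. The largest changes were those of the inflammatory caspase gene Casp1 (-0.33, adjusted p = 0.155) and the immunoproteasome gene Psmb8 (-0.21, adjusted p = 0.0744). Array weights called 3 of these genes lower, and 2 were called lower without Rluc.713 replicate 1. Over all genes these settings called 542 and 399 lower, against 201 with all arrays as deposited. The difference between the 2 lists was not tested.

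**Figure D4:**
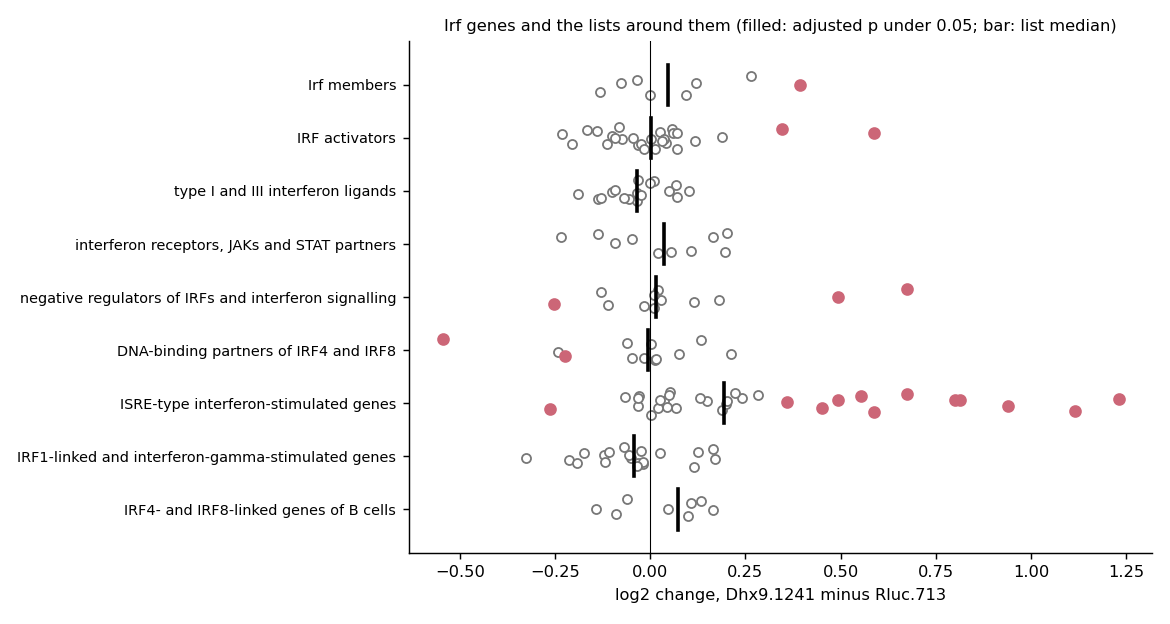
Log2 change, Dhx9.1241 minus Rluc.713, of the Irf members and of every measured gene in the lists around them. Filled points passed the limma test, open points did not, and the bar is the list median, 0.19 for the ISRE-type genes and between -0.04 and 0.07 for the other rows; some genes stand in more than 1 list.

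Negative regulators of the family moved both ways. Of 12 measured, 2 rose, 1 fell and 9 did not pass, beside 2.07% of all genes higher and 1.07% lower. The 2 that rose are interferon-stimulated themselves: Oasl1, whose protein blocks translation of Irf7 mRNA, from 9.23 ± 0.133 to 9.90 ± 0.104 (SD, n = 3, adjusted p = 0.00433), and Usp18, which damps interferon receptor signalling, from 7.90 ± 0.091 to 8.39 ± 0.043 (adjusted p = 0.00458). The translation repressor gene Eif4ebp1, also known to limit Irf7 protein, fell by 0.25 (adjusted p = 0.0271). Its call was kept without Rluc.713 replicate 1 (0.0266) and lost without Rluc.713 replicate 2 (0.114) or 3 (0.0821) and without Dhx9.1241 replicate 1 (0.0887), 2 (0.133) or 3 (0.113). Foxo3 (0.18, adjusted p = 0.109), the Irf2-binding genes Irf2bp1 (0.03) and Irf2bp2 (0.11), and Socs1 (-0.02) did not pass.

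Among 12 DNA-binding partners of Irf4 and Irf8, 2 fell and none rose, beside 1.07% of all genes lower and 2.07% higher. Spib, the ETS partner of B cells, fell from 12.20 ± 0.097 to 11.65 ± 0.115 (SD, n = 3, adjusted p = 0.00806) and kept its call without any 1 array. Jund, an AP-1 subunit, fell by 0.22 (adjusted p = 0.0489), and its adjusted p without any 1 array other than Rluc.713 replicate 1 lay between 0.139 and 0.207; without that array it was 0.0348. Spi1, which encodes PU.1, had a change of -0.24 (adjusted p = 0.0572), and Batf, Batf3 and Ikzf1 had changes of 0.01, 0.01 and -0.06. Jun (0.21, adjusted p = 0.207) and Ets1 (0.13, adjusted p = 0.328) leaned the other way without passing. The limma p without adjustment was below 0.05 for 2 partners with positive changes and 3 with negative ones. Over all genes these shares were 8.5% and 5.63%. None of 8 measured genes linked to Irf4 and Irf8 in B cells passed in limma. Before adjustment p was under 0.05 for 1 higher and 1 lower gene (8.5% and 5.63% of all genes). The largest were Bcl6 (0.16, adjusted p = 0.129) and Ikzf3 (-0.14, adjusted p = 0.21). Over all the lists together, 12 of 130 genes rose and 4 fell, beside 2.07% and 1.07% of all genes. Of these 12, 11 stand in the ISRE-type list, which is no independent support, and the other is Ikbke. The 16 calls became 9 without Dhx9.1241 replicate 1 or without replicate 3.

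Markers of cells that express these factors were read beside them. Over all genes 2.07% rose and 1.07% fell. The B cell markers were bright: none of 9 lay in the dimmest 25% of genes, Rag1 rose (0.46) and Vpreb3 fell (-0.57). Of 11 myeloid markers, cells in which Irf5 and Irf8 are also made, 5 fell and none rose: Lyz2 (-1.31), Csf1r (-0.45), Tyrobp (-0.37), Cybb (-0.35), which B cells also express, and Fcer1g (-0.32). Of the 11, 1 had a positive change, Itgam (0.21, adjusted p = 0.152), and Adgre1 and S100a8 stood at -0.01 each. The summed linear level of the 11 ran from 11529 to 12403 in the control arrays and from 8770.35 to 9299.8 in Dhx9.1241. Bright probe sets weigh most in this sum, here that of Cybb. The mean log2 value of the 11 ran from 8.84 to 8.91 in the control and from 8.59 to 8.61 in Dhx9.1241. The part of myeloid cells in the Irf5 and Irf8 values was not tested. Of 9 dendritic cell markers, cells known for high Irf7 and Irf8, Flt3 (0.45) and Pacsin1 (0.27) rose, Cox6a2 fell (-0.26), and Siglech, the defining marker of plasmacytoid cells, had a change of -0.13 (adjusted p = 0.435). Their summed level ran from 4081 to 4329.6 in the control and from 3808 to 4035 in Dhx9.1241. A linear sum is weighted towards bright probe sets, here that of Cox6a2, and the mean log2 value of the 9 overlapped, from 7.76 to 7.89 in the control and from 7.83 to 7.89 in Dhx9.1241. The part of these cells in the Irf7 value was not tested. Of 12 fibroblast markers of the feeder layer, 1 fell, Cav1 (-0.25), and their sum ran from 3254 to 3782 and from 3309 to 3352. No marker of T or NK cells passed in limma among 8 measured. Before adjustment p was under 0.05 for 1, which was higher (8.5% of all genes). Background-corrected array values do not reach 0, so absence of a marker cannot be read from them.

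Among 18081 genes ranked, leaving out clone and predicted names, those with the profile closest to Irf7 over the 6 arrays were Tuba1a, S1pr1, Tmem120b, Cd55b and Pik3r3. Likeness was the root mean square distance between deviations from each gene's own mean, which ran from 0.056 to 0.071 for these 5 on the log2 scale, against a median of 0.227 over all genes ranked. Tuba1a encodes an alpha tubulin, S1pr1 the receptor for sphingosine 1-phosphate that guides lymphocytes out of lymphoid tissue, and Pik3r3 a regulatory subunit of PI3-kinase. Tuba1a had a log2 change of 0.37, Tmem120b 0.34, S1pr1 0.32, Pik3r3 0.31 and Cd55b 0.26; they were chosen for their likeness, so these are a description with no test. None of the 5 stands in the interferon lists above. With 6 arrays in 2 groups, likeness mostly reflects a similar size of change, and it says nothing of shared control.

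**Figure D5:**
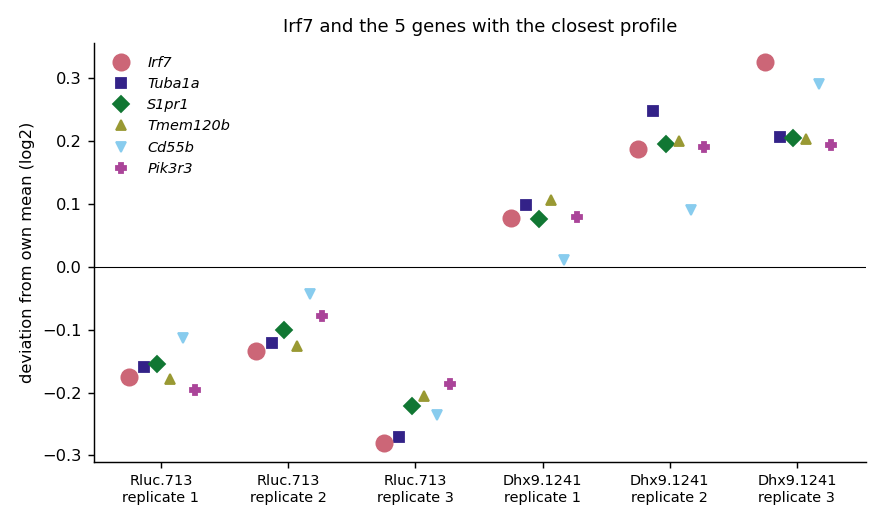
Deviation of Irf7 and its 5 closest genes from their own mean, on the log2 scale, for each of the 6 arrays; points of one array are set side by side. All 6 genes lie below 0 on the 3 Rluc.713 arrays and above 0 on the 3 Dhx9.1241 arrays, where replicate 3 is the highest for all but Tuba1a.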

How the data were processed

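Affymetrix arrays were read as 1 deposited log2 value per probe set and array, made with RMA per the submitters' processing notes; its version, its settings and the genome build were not given in the sources used here. RMA corrects background and makes the arrays' distributions alike, which compresses changes of dim genes. Of 21212 probe sets, 18786 had 1 gene symbol in the platform annotation, 6 several and 2420 none; symbols were updated by gene number for 18775. For 2 genes with more than 1 probe set the brighter one was used.

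Dhx9.1241 minus Rluc.713 was fitted over 18784 genes with limma 3.58.1 (lmFit, eBayes) in R 4.3.3, two-sided, with no covariate and no filter; every adjusted p is from this test unless a permutation is named. The fit was also run on simulated data with independent values for each gene. Those data held no shift of a whole array, so they do not bear on such shifts here. The members and lists were chosen with earlier results of these data known. Named were all members, called genes of each list or its 2 largest changes, and the 5 profiles closest to a called member; other list genes and markers named were chosen after their values were seen. The stretch upstream of Irf3 overlaps another gene and is not shown. Replicate numbers are not known to pair the arrays and were not used as pairs. Deviations of same-numbered arrays correlated at -0.27, -0.34 and 0.24 across genes, which so few arrays cannot settle either way. Alternatives were normalization, dim-gene filters, probe set choice, variance model, array weights, the replicate block and each array left out.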

Additional observations from a re-analysis of the deposited data

How the results depend on the processing

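No call of an Irf member was made in the lower direction under any of the 16 alternatives. The probe set choices among these could hardly move a member, since each member has 1 probe set. The number of members higher, 1, became 2, with Irf9, after quantile normalization again, cyclic loess, a variance trend with robust estimation and array weights, and 0 to 1 with an array left out. With the replicate block it was 0 (Irf7 adjusted p = 0.0861), although the numbers are not known to pair the arrays. With the brighter genes alone, those not below the median level, Irf7 was not tested and Irf9 was the 1 member called. The Irf3 change, near 0, ran from -0.017 to 0.010 with an array left out, and was positive without Rluc.713 replicate 2 and without Dhx9.1241 replicate 2 (0.00064) or 3. The 3 differences between relatives kept their direction under the normalizations and with each array left out. Over all genes, 389 higher and 201 lower became 609 and 382 with the brighter genes alone, 673 and 466 with a variance trend, 669 and 542 with array weights, and 172 and 92 with the replicate block. Median centring gave 250 higher and 185 lower. Quantile normalization again gave 507 higher and 360 lower, and cyclic loess 503 and 345. Leaving out 1 array gave 126 to 497 higher and 70 to 399 lower, and 9 to 21 of the 130 list genes. The share of calls that were higher, 65.9%, was 57.5% to 59.3% with the other normalizations, 59.1% with the trend and 55.2% with array weights, and 55.5% without Rluc.713 replicate 1. The cause of these shifts was not tested. With 3 arrays a group the median SE was 0.061 on the log2 scale, so changes much under 0.2 were not called.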
